A study of Arabidopsis thaliana with 6 samples.

Results

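Spermidine is joined in the tapetum, the innermost cell layer of the anther wall, to hydroxycinnamic acids, and the products are laid down on the pollen surface. The 8 genes described here are SHT (AT2G19070), CYP98A8 (AT1G74540), CYP98A9 (AT1G74550), TSM1 (AT1G67990), SCT (AT2G25150), SDT (AT2G23510), CAD2 (AT2G21730) and CAD3 (AT2G21890), and they were read from the count tables by these locus identifiers. They are 8 of the 27629 genes listed. All were found, and 7 of the 8 passed the filter on low counts, SCT being the exception. RNA was measured in young buds whose anthers were at stages 6 to 9, in 3 BnA9::BnaC.MAGL8.a libraries (BnA9::BnMAGL8.1 in the labels) and in 3 wild type (WT) libraries. Both groups were of the Col background (Col-0 in the study's methods) and were grown at 23 °C with 16 h of light and 8 h of dark. The transgenic plants carry the coding sequence of a monoacylglycerol lipase of oilseed rape under a tapetal promoter, BnA9. The replicates are called biological. The methods speak of transgenic lines in the plural, but not of which line each library holds or how many plants it pools, so p-values cover only the spread among the libraries, which may in part be technical.

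In Arabidopsis, SHT is a BAHD acyltransferase (a family that moves acyl groups from coenzyme A) that attaches hydroxycinnamoyl groups to spermidine in the tapetum. The cytochromes P450 CYP98A8 and CYP98A9 then hydroxylate the phenolic rings of the conjugate, and TSM1, a tapetum-specific O-methyltransferase, adds methyl groups to them. SCT and SDT are the spermidine coumaroyl and sinapoyl transferases, known for conjugates of roots and of seeds. CAD2 and CAD3 belong by sequence to the cinnamyl alcohol dehydrogenase family, whose members CAD4 and CAD5 make monolignols for lignin. No role of CAD2 or CAD3 in the anther is assumed here. All 7 genes tested had lower mean levels in transgenic buds than in WT buds, by 26.1% for SHT to 49.1% for CAD3, but 0 of the 7 passed an adjusted p of 0.05 in edgeR, as 0.0161% of all genes did. TSM1 and CAD2 were the 2 whose transgenic libraries all lay below the WT libraries, as in 6.62% of all genes tested. In bulk buds, fewer tapetal cells and less RNA per tapetal cell cannot be told apart.

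Sequences of the TAIR10.1 assembly of RefSeq are shown first for CAD2 and CAD3, because the similarity of the pair limits what their separate counts can say. CAD2 lies on chromosome 2 from 9279931 to 9282178 and CAD3 from 9331058 to 9332646, both on the plus strand with 4 exons, and 48879 bases holding 14 annotated genes separate them. Of 1128 aligned coding bases 1114 were identical (98.8%), and the longest identical run was 360 bases. Below are the 150 bases that end just before the annotated CAD2 transcript (9279781 to 9279930) and the best ungapped match upstream of CAD3 (9330832 to 9330981), which ends 76 bases before the annotated CAD3 transcript. Capitals mark the bases that differ, 1 of 150.
CAD2 upstream: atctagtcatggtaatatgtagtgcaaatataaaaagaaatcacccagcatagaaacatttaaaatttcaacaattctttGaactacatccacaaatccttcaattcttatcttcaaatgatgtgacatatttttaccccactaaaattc
CAD3 upstream: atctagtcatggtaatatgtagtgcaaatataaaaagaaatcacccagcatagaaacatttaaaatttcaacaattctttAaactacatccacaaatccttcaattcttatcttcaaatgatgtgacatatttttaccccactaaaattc
The next pair is the stretch of 80 coding bases within 1 exon with the most differences, 5 of 80, again in capitals (CAD2 from 9281173 to 9281252, CAD3 from 9332196 to 9332275).
CAD2 coding: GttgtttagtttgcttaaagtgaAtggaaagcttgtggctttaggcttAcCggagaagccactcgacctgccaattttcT
CAD3 coding: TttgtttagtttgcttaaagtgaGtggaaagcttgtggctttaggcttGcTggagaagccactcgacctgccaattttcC
The annotated leader before the start codon is 123 bases in CAD2 and 31 bases in CAD3. Of all 50-base stretches of the transcripts, 43.6% in CAD2 and 56.1% in CAD3 also occurred in a transcript of another gene. These were stretches of the other member of the pair, and for CAD2 also of AT2G21740 (EC1.2, 4 to 18 counts in a library) and of AT2G21895, which was not in the tables.

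The upstream bases of the 3 spermidine conjugate genes with the highest levels are shown because bHLH proteins of the tapetum, among them AMS, bind the E-box CANNTG. Capitals mark each E-box. The pattern CANNTG, though not each match to it, reads the same on both strands. The windows end just before the annotated transcript, on the strand of the gene, for SHT on the minus strand of chromosome 2 (8261986 to 8262235), for CYP98A8 on the plus strand of chromosome 1 (28013059 to 28013308) and for TSM1 on the plus strand of chromosome 1 (25489313 to 25489454, starting after the end of the neighbouring gene). The CYP98A8 window reaches into the annotated gene span but stops before its transcript, and part of it lies under the lncRNA AT1G74545 of the other strand.
SHT upstream: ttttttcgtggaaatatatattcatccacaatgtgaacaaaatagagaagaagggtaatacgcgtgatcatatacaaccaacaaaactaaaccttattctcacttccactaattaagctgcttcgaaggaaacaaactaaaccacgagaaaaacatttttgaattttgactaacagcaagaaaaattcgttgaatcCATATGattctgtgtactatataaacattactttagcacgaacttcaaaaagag
CYP98A8 upstream: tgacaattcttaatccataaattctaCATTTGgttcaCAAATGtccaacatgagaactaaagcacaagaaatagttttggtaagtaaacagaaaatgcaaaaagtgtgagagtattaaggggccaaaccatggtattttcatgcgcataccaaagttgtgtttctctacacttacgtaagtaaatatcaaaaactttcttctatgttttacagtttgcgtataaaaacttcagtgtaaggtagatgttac
TSM1 upstream: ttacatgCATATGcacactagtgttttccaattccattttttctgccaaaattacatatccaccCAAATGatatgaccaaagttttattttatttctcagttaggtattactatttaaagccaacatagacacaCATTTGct
In windows of 250 bases, TSM1 had 3 E-boxes, CYP98A8 and CAD3 had 2 each, SHT, SDT and CAD2 had 1 each, and CYP98A9 and SCT had 0. At least 1 was present in 55.3% of the 27443 promoters of protein-coding genes, at least 2 in 20.3% and at least 3 in 5.66%, so only the TSM1 count lay in a small share of promoters. Neither the G-box CACGTG (6.49% of promoters) nor the evening element AAAATATCT (2.36%) was found in the 8 windows on either strand. These are matches of letters, not binding sites.

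Library totals lay between 13519945 and 14729927 counts. The transgene had 5552, 853 and 9594 counts in transgenic replicates 1, 2 and 3, against 0 counts in each WT library, so the labels held for all 6. Of the 23 tapetum markers 22 had counts, DYT1 being at 0 in all libraries, so the buds held tapetal RNA in both groups. Summed seed marker levels were 29.0 CPM (counts scaled to library size by TMM) in WT replicate 3, against 1.55 to 6.17 CPM in the other 5 libraries. The clock score, which is evening minus morning genes on a log2 scale, was 4.29, 3.55 and 7.10 in transgenic libraries, against 5.03, 7.77 and -0.55 in WT libraries. WT replicate 3 therefore stood apart from the others in both measures, and values without it are given where they differ most.

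Per kb of exon, the 8 genes fell into the same order in both groups. TSM1 was highest, at 908 ± 252 CPM per kb in transgenic buds and 1352 ± 44.8 CPM per kb in WT buds (SD, n = 3 each). SHT followed at 492 ± 91.7 CPM per kb in transgenic and 666 ± 160 CPM per kb in WT buds. CYP98A8 stood at 199 ± 53.0 CPM per kb in transgenic and 336 ± 101 CPM per kb in WT buds, and CYP98A9 at 122 ± 28.1 CPM per kb in transgenic and 171 ± 87.4 CPM per kb in WT buds. The tapetal branch thus held the 4 highest levels. SDT averaged 9.67 ± 2.18 CPM per kb in transgenic and 14.2 ± 3.11 CPM per kb in WT buds. CAD3 had 5.08 ± 1.59 and CAD2 4.96 ± 1.27 CPM per kb in transgenic buds, against 9.99 ± 3.01 for CAD3 and 8.29 ± 0.573 CPM per kb for CAD2 in WT buds. CAD3 and CAD2 overlapped in both groups, as did CYP98A8 and CYP98A9, and SDT and CAD3 overlapped in WT buds, while SCT was near 0 throughout.

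**Figure D1:**
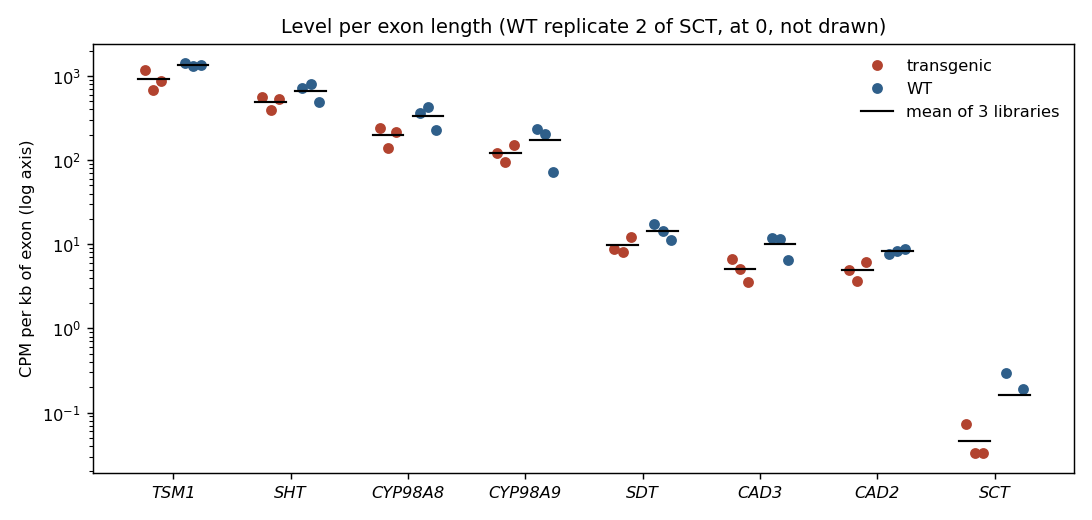
Level of each gene in CPM per kb of exon on a log axis, with transgenic libraries in red left of WT libraries in blue and the mean of 3 libraries as a line. TSM1, SHT, CYP98A8 and CYP98A9 stand at 71.4 CPM per kb or above in every library, and SDT, CAD3 and CAD2 lie between 3.52 and 17.4 CPM per kb.

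SHT, the acyltransferase that starts the tapetal conjugates, lies on chromosome 2 (8260038 to 8261985, minus strand, 2 exons). It had 863, 595 and 802 CPM in transgenic libraries, against 1085, 1224 and 748 CPM in WT libraries. WT replicates 1 and 2 were above all transgenic libraries, while WT replicate 3 lay below transgenic replicates 1 and 3, so the groups overlapped. The means were 753 ± 140 CPM in transgenic and 1019 ± 245 CPM in WT buds (SD, n = 3 each), and the log2 fold change was -0.44 (SE 0.23, edgeR adjusted p = 0.743). SHT overlaps AT2G19060 on the other strand, which had 0 counts in all 6 libraries. Without WT replicate 3, the log2 fold change of SHT was -0.62 (edgeR adjusted p = 0.387), and it was -0.28 without WT replicate 2 (edgeR adjusted p = 0.713) and -0.28 without transgenic replicate 2 (edgeR adjusted p = 0.991).

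CYP98A8 and CYP98A9, the P450s that hydroxylate the rings of the conjugate, are neighbours on the plus strand of chromosome 1 (28013180 to 28015049 and 28016045 to 28017711), 995 bases apart and with 79.2% identical coding bases, and each has 1 exon. CYP98A8 had 420, 243 and 376 CPM in transgenic libraries, against 628, 733 and 391 CPM in WT libraries. Only transgenic replicate 1 lay above the lowest WT library. The means were 346 ± 92.2 CPM in transgenic and 584 ± 175 CPM in WT buds, a log2 fold change of -0.76 (SE 0.27, edgeR adjusted p = 0.720). Leaving out WT replicate 3 gave -0.98 for CYP98A8 (edgeR adjusted p = 0.277). The value was -0.55 without transgenic replicate 2 (edgeR adjusted p = 0.991) and -0.56 without WT replicate 2 (edgeR adjusted p = 0.596).

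CYP98A9 had 202, 158 and 252 CPM in transgenic libraries, against 392, 343 and 119 CPM in WT libraries. The highest and the lowest library were both WT, and the 3.30-fold range within WT enclosed all transgenic values. The means were 204 ± 46.8 CPM in transgenic and 285 ± 146 CPM in WT buds, and the log2 fold change of -0.48 (SE 0.38, edgeR adjusted p = 0.813) was within that spread. Without WT replicate 3 it was -0.85 (edgeR adjusted p = 0.277). The value was -0.18 without WT replicate 1 (edgeR adjusted p = 0.9996), -0.32 without transgenic replicate 2 (edgeR adjusted p = 0.996) and -0.32 without WT replicate 2 (edgeR adjusted p = 0.829). CYP98A9 is overlapped on the other strand by the lncRNA AT1G09487 (1130 bases), a gene not in the tables, and by NRP1 (128 bases), a histone chaperone with 570, 666 and 663 counts in transgenic and 1397, 844 and 988 counts in WT libraries. The use of strand in counting is not given in the sources used here, so reads of CYP98A9 and of either gene cannot be told apart in these overlaps. The same holds for CYP98A8 and the lncRNA AT1G74545 of the other strand, which was not in the tables. This overlap of 1870 bases covers the whole annotated span of CYP98A8. Of the 50-base stretches of the CYP98A8 transcript, 94.5% also occurred in that lncRNA, read on either strand.

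TSM1, the O-methyltransferase, lies on chromosome 1 (25489455 to 25490867, plus strand, 5 exons). It had 1012, 584 and 743 CPM in transgenic libraries, against 1205, 1131 and 1150 CPM in WT libraries. All transgenic libraries lay below all WT libraries, with a coefficient of variation of 27.7% in the transgenic libraries and 3.31% in the WT libraries. The means were 779.8 ± 216 CPM in transgenic and 1162 ± 38.5 CPM in WT buds, a log2 fold change of -0.58 (SE 0.21, edgeR adjusted p = 0.720). WT replicate 3, low in SHT, CYP98A8 and CYP98A9, was not low in TSM1.

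SDT, the sinapoyl transferase known from seeds, lies on chromosome 2 (10011481 to 10013533, minus strand, 3 exons). It had 12.3, 11.1 and 16.9 CPM in transgenic libraries, against 24.2, 19.8 and 15.5 CPM in WT libraries. Only transgenic replicate 3 exceeded a WT library, replicate 3. The means were 13.5 ± 3.03 CPM in transgenic and 19.8 ± 4.33 CPM in WT buds, a log2 fold change of -0.56 (SE 0.23, edgeR adjusted p = 0.722). The seed marker sum and SDT did not move together, since WT replicate 3 had the highest seed sum and the lowest WT level of SDT.

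SCT, the coumaroyl transferase known from roots, lies on chromosome 2 (10702341 to 10704825, minus strand, 3 exons). It had 2, 1 and 1 counts in transgenic libraries, against 10, 0 and 6 counts in WT libraries, and was below the filter. The count of 0 in WT replicate 2 allows up to 3 counts, or 0.225 CPM. The 4 counts in transgenic against 16 counts in WT buds gave a ratio of 0.268 with an exact (Clopper-Pearson) 95% interval of 0.0653 to 0.832, which treats the counts as independent, and in a fit without the filter edgeR gave an adjusted p of 0.788. Of the counts from 1 to 20, 75.5% to 78.0% were even in each library, so the counts may not be independent reads and the interval may be too narrow. The difference was not larger than the spread between replicates. Root cap and root tip markers summed to at most 0.451 CPM in any library.

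CAD2 had 9.05, 6.63 and 11.2 CPM in transgenic libraries, against 13.98, 14.9 and 16.1 CPM in WT libraries. All transgenic libraries lay below all WT libraries. The means were 8.97 ± 2.30 CPM in transgenic and 14.995 ± 1.04 CPM in WT buds, a log2 fold change of -0.74 (SE 0.22, edgeR adjusted p = 0.686). It was the only one of the 7 genes tested with an unadjusted p under 0.05 in all 14 other settings tried, with adjusted p from 0.321 to 0.9996.

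CAD3 had 7.77, 5.83 and 4.08 CPM in transgenic libraries, against 13.7, 13.5 and 7.54 CPM in WT libraries. Transgenic replicate 1 lay just above WT replicate 3, and the other values did not overlap. The means were 5.89 ± 1.85 CPM in transgenic and 11.6 ± 3.49 CPM in WT buds. The log2 fold change of -0.98 (SE 0.32, edgeR adjusted p = 0.711) was the lowest of the 7 genes tested. Leaving out WT replicate 3 gave -1.21 for CAD3 (edgeR adjusted p = 0.265), and leaving out transgenic replicate 3 gave -0.77 (edgeR adjusted p = 0.619). In replicate 3 of both groups CAD2 was at its highest and CAD3 at its lowest, so that the log2 ratio of CAD3 to CAD2 was -0.22, -0.18 and -1.43 in transgenic libraries, against -0.033, -0.14 and -1.08 in WT libraries.

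Because the copies are near-identical, their counts were also summed, a choice made after seeing the data. CAD2 plus CAD3 had 16.8, 12.5 and 15.3 CPM in transgenic libraries, against 27.6, 28.5 and 23.6 CPM in WT libraries. The sums of the 2 groups did not overlap. The log2 fold change of the sum was -0.84 (SE 0.17, edgeR adjusted p = 0.408).

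**Figure D2:**
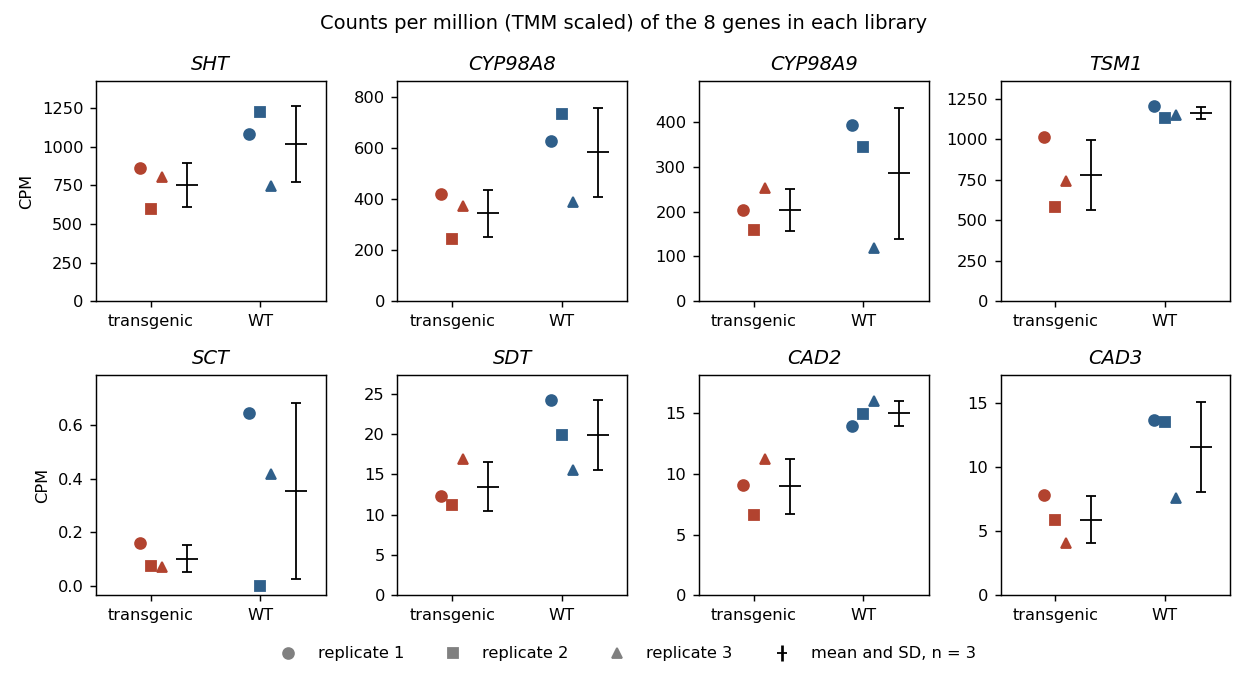
CPM of the 8 genes, 1 panel each, with the 3 transgenic libraries in red left of the 3 WT libraries in blue, symbols for the replicates and the mean with SD beside each group. TSM1 and CAD2 show no overlap between the groups, and WT replicate 3 (triangle) is the lowest WT library for SHT, CYP98A8, CYP98A9, SDT and CAD3.

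Over the 7 genes tested, the log2 fold changes lay between -0.98 and -0.44 with a median of -0.58, where the median of all 18642 genes tested was -0.015 and 52.1% were below 0. At an adjusted p under 0.05, 0 of the 7 were called by edgeR, beside 0.0161% of all genes (3 genes). DESeq2 also called 0 of the 7, beside 0.333% of all genes, and limma voom called none at all. At an unadjusted p under 0.05, 5 of the 7 were lower in transgenic buds (CYP98A8, TSM1, SDT, CAD2 and CAD3), beside 4.26% of all genes. CAD2 and CAD3 are near-identical and may share reads, so they may not be separate entries in this count. Groups without overlap, transgenic below WT, were found for 2 of the 7 (TSM1 and CAD2), beside 6.62% of all genes. The study's own list of changed genes, made on these samples, holds 4 of the 8 (CYP98A8, TSM1, CAD2 and CAD3), so these counts are not independent evidence of its direction. That list was made at a DESeq2 unadjusted p under 0.01, a looser rule than the adjusted p used here. In the DESeq2 fit made here, 386 of the 18642 genes were under that threshold in either direction. CYP98A8, CAD2 and CAD3 were among them (DESeq2 unadjusted p = 0.0075, 0.0062 and 0.0059), while TSM1 was just above it (DESeq2 unadjusted p = 0.0108). The 5 at an unadjusted p under 0.05 became 1 without WT replicate 1 (beside 2.44% of all genes in that fit), 2 without WT replicate 2 (5.23%), 2 without transgenic replicate 2 (2.43%) and 7 without WT replicate 3 (5.07%). Transgenic replicate 2, which had the fewest transgene counts, was the lowest of the 6 libraries for SHT, CYP98A8, TSM1, SDT and CAD2. Whether transgene level played a part in this was not tested.

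The genes upstream and beside the 8 were read from lists of the pathway. Of the 9 genes of the general phenylpropanoid pathway, which supplies the hydroxycinnamoyl-CoA, 3 were higher and 6 lower in transgenic buds, with a median log2 fold change of -0.10, which was 0.017 without transgenic replicate 1 and -0.16 without WT replicate 1. PAL1, a phenylalanine ammonia-lyase at the entry of the pathway, was at 169 ± 32.0 CPM in transgenic and 228 ± 31.1 CPM in WT buds (log2 fold change -0.43, edgeR adjusted p = 0.720). The other 8 had an edgeR unadjusted p above 0.05. Every transgenic library of PAL1 lay below every WT library, as in 6.62% of all genes. For PAL3 every transgenic library lay above every WT library, as in 5.57% of all genes. Of the 12 genes listed for spermidine synthesis, which supplies the acceptor, 4 were higher and 8 lower. The median was -0.11, or -0.059 without WT replicate 1 and -0.18 without transgenic replicate 3. The list also holds SPMS and ACL5, which use spermidine rather than make it. Both were among the higher genes, with log2 fold changes of 0.033 and 0.13, so the counts and median do not describe acceptor supply alone. SAMDC3, an S-adenosylmethionine decarboxylase, had 3.04, 1.75 and 1.86 CPM in transgenic libraries, against 8.83, 4.36 and 2.58 CPM in WT libraries, a log2 fold change of -1.27 (edgeR adjusted p = 0.720). Its groups overlapped. The spermidine synthases SPDS1 and SPDS2 had log2 fold changes of -0.049 and -0.18.

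The list for ring modification outside the tapetal branch lay mostly on the other side of 0. It also holds genes of neighbouring steps that do not modify the ring, namely HCT, CSE and ALDH2C4. Of 9 listed genes 8 were tested, 6 higher and 2 lower in transgenic buds, with a median log2 fold change of 0.39 and none called. HCT, the BAHD transferase of the lignin branch, had 177, 171 and 166 CPM in transgenic libraries, against 110, 131 and 163 CPM in WT libraries (log2 fold change 0.35, edgeR adjusted p = 0.722). CYP98A3, the P450 of that branch and a paralog of CYP98A8 and CYP98A9, had 84.9, 74.8 and 69.4 CPM in transgenic libraries, against 40.7, 40.5 and 77.4 CPM in WT libraries (log2 fold change 0.53, edgeR adjusted p = 0.722). The transgenic libraries were above all WT libraries for HCT, but for CYP98A3 WT replicate 3 was above transgenic replicates 2 and 3. In this list 3 of the 8 genes tested (HCT, CSE and F5H1) had every transgenic library above every WT library, beside 5.57% of all genes. CSE, caffeoyl shikimate esterase, was the only gene of this list with p under 0.05, at 66.3 ± 5.49 CPM in transgenic and 50.7 ± 6.20 CPM in WT buds (log2 fold change 0.39, edgeR adjusted p = 0.720). CCoAOMT1, a methyltransferase related to TSM1, was at -0.063 on the log2 scale (edgeR adjusted p = 0.961). Differences between these fold changes and those of SHT, CYP98A8 and TSM1 were not tested.

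Of the 7 other CAD genes 6 were tested, with 5 higher, 1 lower and a median log2 fold change of 0.19, or 0.44 without WT replicate 3. CAD5, a lignin enzyme, had 132 ± 18.9 CPM in transgenic and 109 ± 25.6 CPM in WT buds (log2 fold change 0.27, edgeR adjusted p = 0.781), and CAD4, the other, was at 0.11 on the log2 scale. CAD7 had 332, 350 and 252 CPM in transgenic libraries, against 189, 251 and 239 CPM in WT libraries (log2 fold change 0.46, edgeR adjusted p = 0.720). Every transgenic library of CAD7 was above every WT library, as in 5.57% of all genes tested. CAD2 and CAD3 had thus the lowest fold changes of the CAD genes tested.

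**Figure D3:**
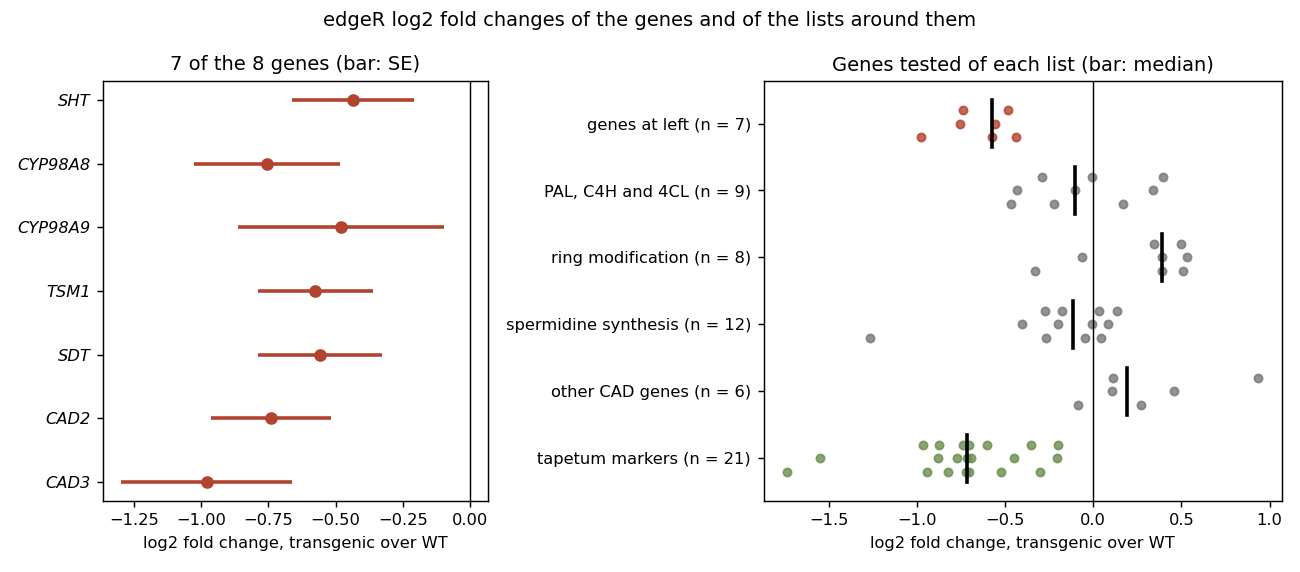
Left, log2 fold change (transgenic over WT) of the 7 genes tested with its standard error; right, the same value for each gene tested of the 6 lists, with the list median as a bar. All 7 genes lie between -0.98 and -0.44, the 21 tapetum markers tested lie below 0, and the ring modification list has a median of 0.39.

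Tapetum markers also lay lower in transgenic buds. All 21 of the 23 markers that were tested had a lower level in transgenic buds, with a median log2 fold change of -0.72. At an edgeR unadjusted p under 0.05 were 6 of the 21, beside 4.26% of all genes lower at that threshold, and none was called. Their summed level was 4473, 2383 and 3023 CPM in transgenic libraries, against 4390, 4788 and 5928 CPM in WT libraries. AMS, the bHLH factor of the tapetum, had 58.3, 38.5 and 51.1 CPM in transgenic libraries, against 72.1, 92.6 and 88.0 CPM in WT libraries (log2 fold change -0.77, edgeR adjusted p = 0.565). QRT3, a polygalacturonase that separates microspores, was at -0.88 (edgeR adjusted p = 0.582) and bHLH091, a partner of the early tapetal factors, at -1.74 on the log2 scale (edgeR adjusted p = 0.623). Transgenic libraries of all 3 lay below all WT libraries. This held for 5 of the 21 markers tested, beside 6.62% of all genes, and the other markers overlapped. The study had already reported AMS, ATA27, QRT3, CYP704B1 and bHLH091 as lower in these same samples. The marker counts are therefore not independent evidence of a lower level. By real-time PCR of young buds, the study found CYP703A2, PKSA and TKPR1 of this list higher in transgenic plants. By the same method CYP704B1, ACOS5, MS2, PKSB, TKPR2, AMS, MYB80, bHLH010, bHLH089 and bHLH091 were lower. DYT1 was at 0 in all libraries here, but the study's real-time PCR gave it similar levels in both genotypes. Of the 9 meiosis markers, 8 stood below 10 CPM in every library.

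Set against the mean log2 level of the tapetum markers in the same library, the levels overlapped between the genotypes for all 7. The log2 ratio to the markers differed, transgenic minus WT, by 0.31 for SHT, -0.0090 for CYP98A8, 0.41 for CYP98A9, 0.12 for TSM1, 0.18 for SDT, -0.026 for CAD2 and -0.22 for CAD3, with exact permutation p between 0.7 and 1.0, where 3 against 3 libraries cannot go below 0.1. The signs for SHT, CYP98A9, TSM1 and SDT turned without WT replicate 3. The differences were then -0.14 for SHT, -0.52 for CYP98A8, -0.39 for CYP98A9, -0.13 for TSM1, -0.23 for SDT, -0.23 for CAD2 and -0.75 for CAD3, with exact permutation p of 0.1 for CYP98A8, the smallest possible, and between 0.2 and 0.8 for the others. Leaving out other libraries also turned the sign for SDT, CYP98A8, CAD2 and CAD3. The mean of the markers, centred over the 6 libraries on the log2 scale, was highest in WT replicate 3 at 0.87, where SHT, CYP98A8 and CYP98A9 were at -0.20, -0.16 and -0.92, CAD3 at -0.082 and SDT at -0.052, but TSM1 was at 0.29 and CAD2 at 0.48. The markers differed among themselves in WT replicate 3. MS2 had 328 CPM there, against 118 and 133 CPM in WT replicates 1 and 2. ATA27 and bHLH089 had their lowest WT level in that library, and A9, ATA7 and AMS were between the other WT libraries. The remaining markers tested had their highest WT level there. In transgenic replicate 2 the marker mean and the 7 genes were low, with the markers at -0.88 and the 7 genes between -0.85 and -0.45. The part of tapetal RNA content in these values was not tested. With the clock score as a covariate, all 7 log2 fold changes were below 0 and all 7 had an unadjusted p under 0.05, with adjusted p from 0.208 to 0.413, beside 5.70% of all genes lower at that threshold in the same fit.

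**Figure D4:**
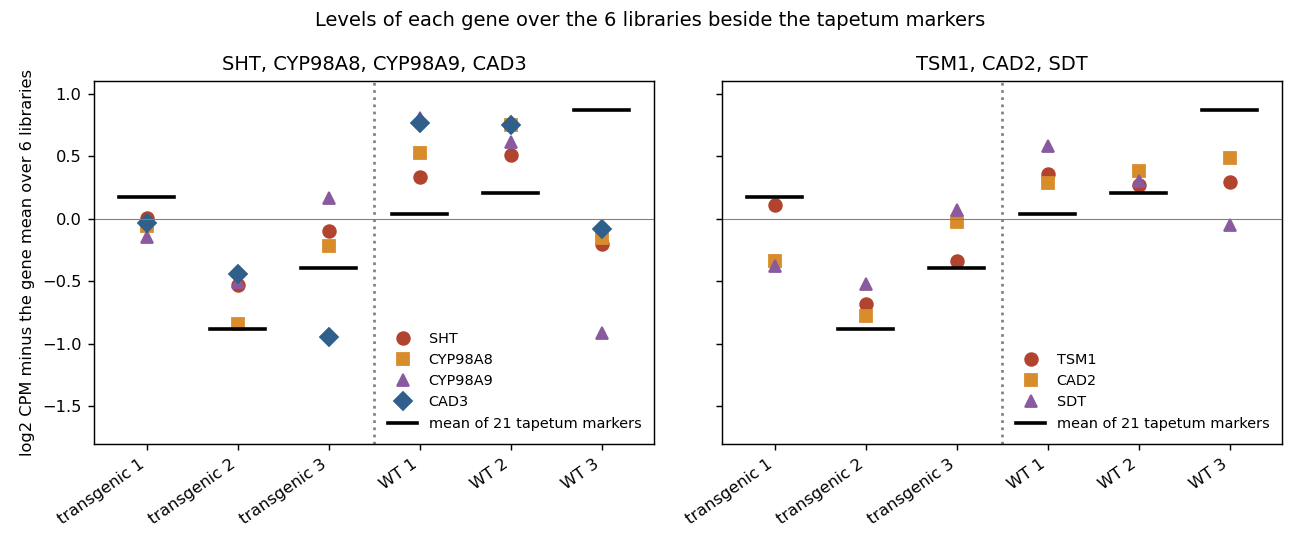
Log2 CPM of each gene minus its mean over the 6 libraries, with transgenic libraries left of WT libraries, and the mean of 21 tapetum markers as black bars. In WT 3 the markers are at 0.87 while SHT, CYP98A8, CYP98A9 and CAD3 lie below 0, and TSM1 and CAD2 are at 0.29 and 0.48.

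The ratio of CYP98A8 to CYP98A9, which does not depend on library scaling, was 1.05, 0.62 and 0.58 on the log2 scale in transgenic libraries, against 0.68, 1.09 and 1.72 in WT libraries, with a difference of -0.41 (exact permutation p = 0.2). The values overlapped, and the difference was -0.14 without WT replicate 3 (exact permutation p = 0.5) and -0.66 without WT replicate 1 (exact permutation p = 0.2). CYP98A8 to SHT, a ratio chosen after seeing the data, was -1.04, -1.29 and -1.09 in transgenic libraries, against -0.79, -0.74 and -0.94 in WT libraries. Here the groups did not overlap, and the difference was -0.32 (exact permutation p = 0.1, the smallest possible, and 1.0 after Benjamini-Hochberg adjustment over 10 ratios). CAD3 to CAD2 differed by -0.19 (exact permutation p = 0.5), by 0.22 without transgenic replicate 3, by 0.00034 without WT replicate 1 and by -0.52 without WT replicate 3.

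Genes most like each of the 7 over the 6 libraries were taken by the root mean square difference of centred log2 CPM, among 17907 genes of at least 1 CPM on average. They were AT1G44224 (0.062) and CSLD2 (0.080), a cellulose synthase-like gene, for SHT, and AT4G18530 (0.088) and ATA20 (0.10), an anther-specific gene of the tapetum, for CYP98A8. For CYP98A9 they were SWEET7 (0.11), a sugar transporter, and TET11 (0.13), a tetraspanin. TSM1 was nearest to PAM1 (0.078) and TPPF (0.081), a trehalose phosphate phosphatase. SDT was nearest to REV3 (0.076) and PAPP2C (0.085), CAD2 to AT1G06830 (0.065) and AT1G62880 (0.094), and CAD3 to CYP735A2 (0.19), a cytokinin hydroxylase, and AT1G11630 (0.19). None of these was another of the 8 genes. Among the 8, SHT and CYP98A8 were the closest pair at 0.19, with CYP98A8 at rank 171 among the genes most like SHT, and CYP98A9 and CAD2 the farthest at 0.64. CAD2 and CAD3, near-identical in sequence, differed by 0.54.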

How the data were processed

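Counts per gene were used as deposited. The authors used HISAT2 and a genome with the transgene added (TAIR10 in the submitters' processing notes), and counted reads per gene with featureCounts. No version, strand setting or handling of multiply mapped reads is stated there. In each library 75.5% to 78.0% of the counts from 1 to 20 were even.

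Low genes were removed with filterByExpr of edgeR 4.0.16 in R 4.3.3 (min.count 10, min.total.count 15, grouped by genotype). Libraries were scaled by TMM, and the genotypes were compared with the quasi-likelihood test with no covariate and Benjamini-Hochberg adjustment over 18642 genes. The threshold for a call was an adjusted p under 0.05. Scripts were tested on simulated data. CPM divide by TMM library sizes, and log2 CPM used a prior count of 2. Alternatives were RLE size factors, 2 other filters, DESeq2 1.42.0, limma voom 3.58.1, robust empirical Bayes, a clock score covariate, the replicate block, each library left out, a prior count of 0.5 for the ratios and the genes alike in pattern, and the longest transcript for the levels per kb. Ratios were compared with two-sided exact permutation tests. Sequences and positions are from RefSeq TAIR10.1, and coding sequences were aligned with Biopython 1.88. Named genes are the 8, up to 4 of each list with the smallest p, those a list needs by role, and the 2 nearest in pattern. The genes and lists were chosen with earlier results of these data known. Other lists examined were late pollen markers, with at most 8.31 CPM summed in any library, and the clock, with 8 of 12 genes lower, none called.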

Additional observations from a re-analysis of the deposited data

How the results depend on the processing

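All 98 log2 fold changes recomputed for the 7 genes (14 settings each) were below 0, and 0 had an adjusted p under 0.05 (lowest 0.208, for CYP98A8 with the clock score). The 5 genes at an unadjusted p under 0.05 became 3 with the replicate block and ranged from 1 to 7 with 1 library left out. Genes called over all genes numbered 62 with DESeq2, 0 with limma voom, 1 with robust empirical Bayes, 0 with the replicate block, and 0 to 5 with 1 library left out. With 1 library left out, the median ranged from 0.13 to 0.44 for the other CAD genes, -0.16 to 0.017 for the general phenylpropanoid genes, -0.18 to -0.059 for spermidine synthesis and 0.28 to 0.49 for ring modification. Same-numbered libraries were not paired in the main fit. Their deviations correlated at -0.0756, -0.0983 and -0.351, and the replicate block changed no direction of the 7. With the block the SE of CAD3 was 0.22, against 0.32 in the main fit. Whether the numbers mark a shared harvest or batch was not tested. The difference for CYP98A8 to the tapetum markers turned to 0.000216 with a prior count of 0.5. With 1 library left out, the differences of the log2 ratios ranged from -0.52 to 0.22 for CAD3 to CAD2 and from -0.66 to -0.14 for CYP98A8 to CYP98A9, and for the ratios to the tapetum markers from -0.14 to 0.54 (SHT), -0.52 to 0.26 (CYP98A8), -0.39 to 0.89 (CYP98A9), -0.13 to 0.32 (TSM1), -0.23 to 0.50 (SDT), -0.23 to 0.22 (CAD2) and -0.75 to 0.092 (CAD3). The cause was not tested. The longest transcript of each of the 8 genes equals the union of its exons, so the levels per kb did not move. The depth limits SCT, with 20 counts in all.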
